A study of Mus musculus with 16 samples.

Results

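The ID proteins Id1, Id2 and Id3 and the E proteins Tcf3 (E2A), Tcf4 (E2-2) and Tcf12 (HEB) were followed in bulk RNA-seq of mouse bone marrow progenitors. These 6 genes were taken by their symbols from a table of 54347 genes. No measured value entered that rule, although it was set with earlier results of these data known. The 16 libraries form 4 groups of 4, labelled URE or WT by genotype and LSK or GMP by cell type. UREΔ mice lack the upstream regulatory element, an enhancer of Spi1, the gene for the myeloid transcription factor PU.1, in every cell of the body. The WT mice were littermates, and both genotypes were on the C57BL/6 background and 8 to 12 weeks old, before leukemia. LSKs (Lin- Sca-1+ c-Kit+) hold the hematopoietic stem cells and multipotent progenitors, and GMPs (Lin- Sca-1- c-Kit+ CD16/32+) the granulocyte-monocyte progenitors. Both were sorted after enrichment on c-Kit beads, and each library was built from at most 10 ng of total RNA.

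E proteins are basic helix-loop-helix transcription factors that bind DNA as dimers, on short motifs called E-boxes, and they drive the early steps of the B, T and plasmacytoid dendritic lineages. ID proteins have the helix-loop-helix with which dimers form but no basic region, so that an E protein held by an ID protein cannot bind DNA. The balance between both families is known to set the choice between lymphoid and other fates, and the Id genes are classical targets of BMP signalling through SMAD proteins.

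The libraries held 20028302 to 29128858 estimated counts, and levels are given as CPM, the count relative to the library's total, scaled by TMM. Spi1 was checked first. It was at 69.5 to 166 CPM in WT LSKs and at 1.13 to 4.44 CPM in UREΔ LSKs, and at 84.8 to 181 CPM in WT GMPs and 15.6 to 28.6 CPM in UREΔ GMPs, so the genotypes did not overlap in either cell type. Of the 6 genes fixed for the LSK gate, 5 were lower in GMPs in both genotypes, and of the 6 for the GMP gate, 5 were higher. Over all genes tested, 15.8% were lower and 11.5% higher in WT GMPs, and 12.6% and 9.20% in UREΔ GMPs. The lists also hold Ly6a (Sca-1) and Fcgr3 (CD16), by which the cells were sorted, so these genes are no independent check. In each of these lists the exception was Kit, by which both populations were sorted. Over all genes, replicates 1 and 4 stood apart from replicates 2 and 3. Sex was read from the RNA of Y-linked genes. By this reading, the mice with replicate numbers 2 and 3 differed in sex between the genotypes. Values that turn on this split are therefore given for both sets.

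All members are protein-coding genes, and their exons overlap those of no other gene in GENCODE M21 on GRCm38. Id1 (ENSMUSG00000042745) lies at chr2:152736251-152737410 on the forward strand, Id2 (ENSMUSG00000020644) at chr12:25093799-25097140 on the reverse strand, and Id3 (ENSMUSG00000007872) at chr4:136143497-136145755 on the forward strand. Tcf3 (ENSMUSG00000020167) lies at chr10:80409514-80433647 and Tcf12 (ENSMUSG00000032228) at chr9:71842688-72111871, both on the reverse strand. The identifier of Tcf4 is ENSMUSG00000053477. The ID genes are short, with 1160 to 2438 bases of merged exons, and the E protein genes long, with 4039 bases for Tcf3, 15529 for Tcf12 and 27382 for Tcf4.

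RefSeq promoter windows on GRCm38.p6 were found for 4 of the 6 members, namely Id2, Id3, Tcf3 and Tcf12. Shown, from their far end up to the first annotated exon, are the first windows of the 3 genes that hold an E-box there, the motif that the family itself binds. A second window of Tcf12, which also holds an E-box (CAAGTG, at -149), is not shown, and the last window of Tcf12 holds none. For Tcf3 and Tcf12 the part shown lies upstream of the gene, whereas for Id2 it lies inside the gene as GENCODE draws it, between its exons and upstream of the RefSeq start. Capitals mark the E-box (CANNTG) and, where present, the PU.1 core (GAGGAAG, or CTTCCTC on the other strand) and the SMAD element of BMP target genes (GGCGCC). The Id2 sequence is chr12:25096254-25096342, that of Tcf3 chr10:80433648-80433885 and that of the first Tcf12 promoter chr9:72111872-72112069, all on the reverse strand.
Id2: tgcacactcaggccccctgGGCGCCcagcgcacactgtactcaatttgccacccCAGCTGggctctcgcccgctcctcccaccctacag
Tcf3: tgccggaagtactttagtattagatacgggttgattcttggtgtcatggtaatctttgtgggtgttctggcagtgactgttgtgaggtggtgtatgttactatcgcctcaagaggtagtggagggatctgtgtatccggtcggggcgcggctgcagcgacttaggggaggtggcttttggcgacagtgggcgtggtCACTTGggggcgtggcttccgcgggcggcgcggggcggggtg
Tcf12: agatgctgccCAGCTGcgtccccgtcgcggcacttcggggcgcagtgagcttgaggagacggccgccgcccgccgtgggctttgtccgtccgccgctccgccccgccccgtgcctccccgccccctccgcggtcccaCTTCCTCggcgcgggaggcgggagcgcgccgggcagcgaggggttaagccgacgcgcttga

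Id2 and Tcf12 each hold the E-box in the form CAGCTG, at position -196 and -240 from the RefSeq start, and Tcf3 holds a CACTTG at -54. The PU.1 core lies at -113 in Tcf12, and also at -209 in the Id3 window, and the SMAD element at -231 in Id2. Among 32851 RefSeq windows of the same 250 bases, searched on both strands, 66.2% held a CANNTG, 13% a CAGCTG, 10.6% the PU.1 core and 9.59% the SMAD element. CAGCTG is one form of CANNTG, and the remaining motifs share no bases. These matches describe the letters only, since binding was not measured in these libraries.

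Id1, an inhibitor of E proteins that is known from stem cells and myeloid progenitors, went from a mean of 0.819 ± 0.320 CPM in UREΔ LSKs to 13.7 ± 5.15 CPM in UREΔ GMPs (SD, n = 4 each). WT LSKs had 0.641, 1.24, 0.937 and 1.85 CPM in replicates 1 to 4, and UREΔ LSKs had 0.507, 0.796, 1.26 and 0.711 CPM. Both LSK groups were low and overlapped. WT GMPs had 2.43, 8.02, 7.82 and 3.11 CPM and UREΔ GMPs 7.67, 15.7, 11.6 and 19.6 CPM. Every GMP library was above every LSK library, and the lowest UREΔ GMP library lay between the lower and the higher pair of WT GMP libraries. The Id1 values rest on few counts in LSKs, with 13 to 46 per library against 56 to 348 in GMPs.

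Id2, which in blood cells is best known from innate lymphoid and dendritic cells, showed no such step. It had 5.06, 16.1, 9.92 and 4.23 CPM in WT LSKs and 7.21, 10.5, 17.0 and 6.86 CPM in UREΔ LSKs. In WT GMPs it had 4.33, 14.3, 7.23 and 5.97 CPM, and in UREΔ GMPs 3.28, 7.68, 11.8 and 8.84 CPM. All 4 groups overlapped, and in every group but UREΔ GMPs replicates 2 and 3 were the 2 highest. Over the 16 libraries the mean of Id2 was 11.8 CPM in replicates 2 and 3 and 5.72 CPM in replicates 1 and 4.

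Id3, which restrains E proteins in developing lymphocytes, was close to the limit of detection. It had 3 to 24 counts in the LSK libraries of either genotype and 0 to 5 counts in the GMP libraries. Its mean was 0.466 ± 0.339 CPM in WT and 0.480 ± 0.311 CPM in UREΔ LSKs (SD, n = 4 each), and 0.0858 ± 0.0887 CPM in WT and 0.104 ± 0.0420 CPM in UREΔ GMPs. The fourth ID gene, Id4, was at 0 in every library of 3 groups and reached 0.101 CPM in WT LSKs, where a count of 0 cannot be told from a level of up to 3 counts per library.

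Tcf4, the E protein that sets the plasmacytoid dendritic fate, was at 220, 251, 228 and 189 CPM in WT LSKs and at 215, 217, 259 and 152 CPM in UREΔ LSKs. In WT GMPs it was at 133, 105, 119 and 115 CPM and in UREΔ GMPs at 110, 103, 99.1 and 99.4 CPM. All LSK libraries were thus above all GMP libraries, and the genotypes overlapped in both cell types.

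Tcf12, whose protein pairs with E2A in early lymphoid cells, was at 29.9, 40.1, 52.4 and 44.8 CPM in WT LSKs and at 45.0, 42.4, 63.4 and 42.4 CPM in UREΔ LSKs. WT GMPs had 27.4, 31.6, 43.5 and 30.9 CPM and UREΔ GMPs 24.3, 23.9, 33.3 and 18.3 CPM. The cell types overlapped in WT but not in UREΔ mice, and replicate 3 was the highest in all 4 groups.

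Tcf3, which encodes the E12 and E47 proteins required for B cell development, had group means of 25.0 to 29.6 CPM, in proportion the closest of any member. It had 24.5, 23.1, 30.2 and 40.7 CPM in WT LSKs and 32.2, 21.0, 16.3 and 44.4 CPM in UREΔ LSKs. WT GMPs had 27.4, 25.7, 23.0 and 35.5 CPM, and UREΔ GMPs 29.5, 19.3, 25.1 and 26.1 CPM. All groups overlapped, and over the 16 libraries the mean was 23.0 CPM in replicates 2 and 3 and 32.5 CPM in replicates 1 and 4, the opposite order of Id2. This split of the libraries was known from these data, so it is given without a test.

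**Figure D1:**
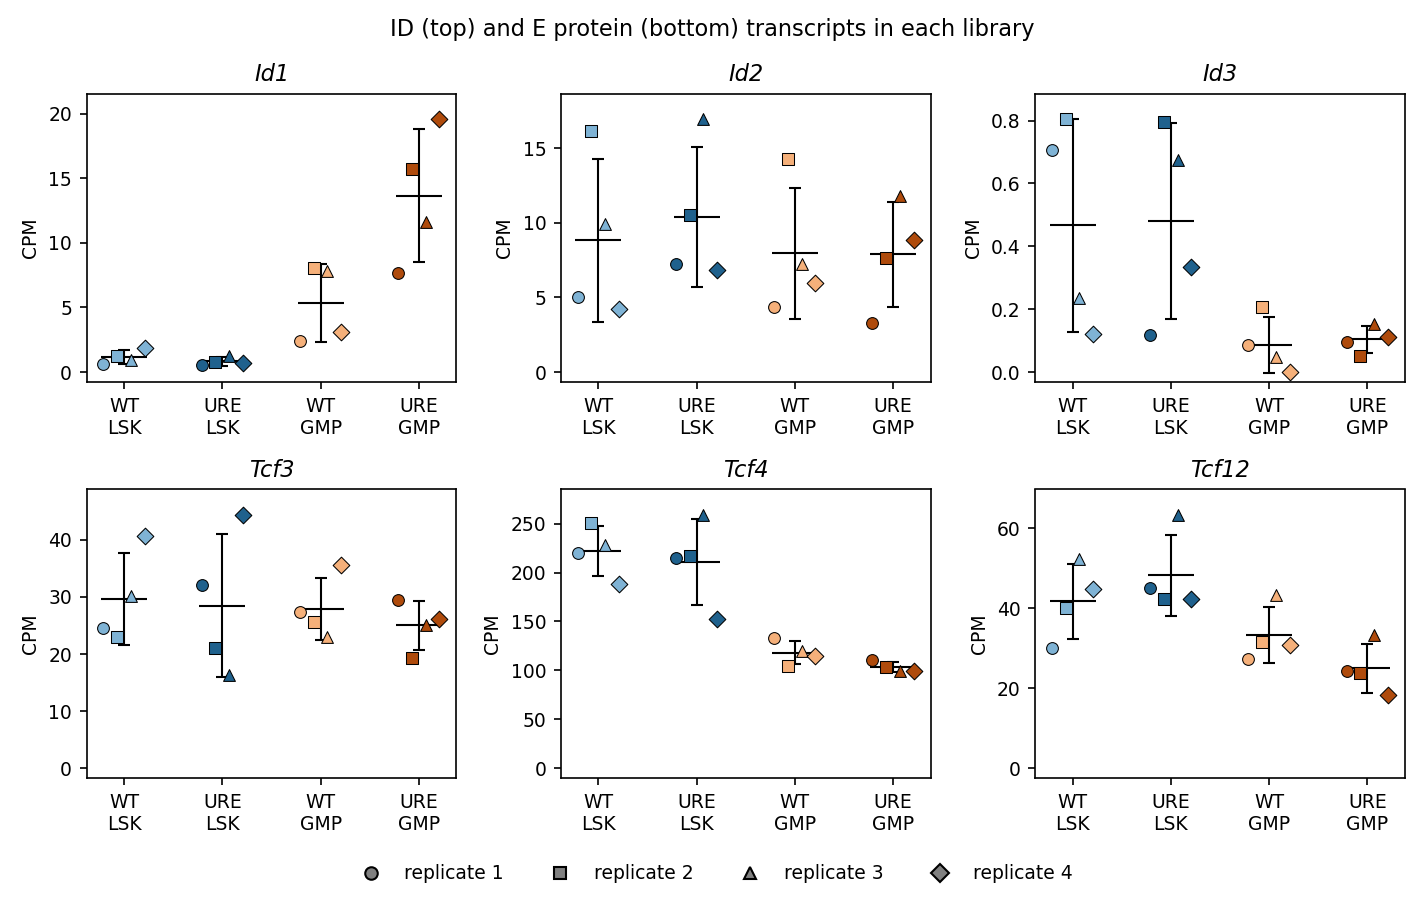
Level of each member in CPM (vertical axis, linear, scaled separately for each gene) in the 4 groups, with 1 symbol per library shaped by replicate number, and the mean with its SD as a line with error bars (n = 4). Id1 lies between 0.507 and 1.85 CPM in LSKs and between 2.43 and 19.6 CPM in GMPs, whereas Tcf4 lies between 152 and 259 CPM in LSKs and between 99.1 and 133 CPM in GMPs.

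Levels of different genes were compared only per kb of transcript. On CPM per kb of merged exons, WT LSKs had 8.10 ± 0.937 for Tcf4 and 7.34 ± 1.98 for Tcf3 (SD, n = 4), which did not differ beyond their spread. They were followed by Id2 at 3.63 ± 2.25 and Tcf12 at 2.69 ± 0.605, again within their spread, then by Id1 at 1.01 ± 0.447 and Id3 at 0.260 ± 0.189. The libraries of Tcf3 and Id2 overlapped as well, while those of Tcf12, Id1 and Id3 did not overlap from one to the next. In UREΔ GMPs the order on the same scale was Id1 at 11.8 ± 4.44, Tcf3 at 6.19 ± 1.05, Tcf4 at 3.77 ± 0.194, Id2 at 3.24 ± 1.45 and Tcf12 at 1.61 ± 0.400, and all neighbours in this order overlapped except Tcf3 and Tcf4. Merged exons count every alternative exon of Tcf4. With the median length of the coding transcripts, a choice made after the data were seen, Tcf4 stood far above the rest, at 94.5 ± 10.9 CPM per kb in WT LSKs against 10.4 ± 2.82 for Tcf3, and at 43.9 ± 2.26 in UREΔ GMPs against 13.0 ± 4.92 for Id1. The place of Tcf4 among the members thus depended on the length used, and the fold change of a single gene between groups does not.

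The summed level of the ID genes was set against that of the E protein genes in each library, as a description. On CPM per kb of merged exons, the ratio was 0.272 ± 0.136 in WT LSKs, 0.299 ± 0.142 in UREΔ LSKs, 0.612 ± 0.362 in WT GMPs and 1.34 ± 0.537 in UREΔ GMPs (SD, n = 4). The UREΔ GMP libraries, at 0.621 to 1.83, lay above all LSK libraries, whereas the WT GMP libraries, at 0.292 to 1.06, overlapped every other group, and the LSK groups overlapped each other. Within the ID sum, Id1 made up 23.6 ± 15.7% in WT LSKs and 13.8 ± 2.13% in UREΔ LSKs, but 57.1 ± 8.09% in WT GMPs and 78.2 ± 7.42% in UREΔ GMPs. Within the E protein sum, Tcf4 made up 45.2 ± 7.96% in WT LSKs and 32.8 ± 3.19% in UREΔ GMPs. That share depended on the length used and was 82.3 ± 4.50% and 75.1 ± 2.63% with the median coding transcript length, a choice made after the data were seen. With the median coding transcript length, the ID sums in the same order of groups were 8.44, 9.35, 11.4 and 19.3 CPM per kb and the E protein sums were 115, 111, 67.8 and 58.5 CPM per kb. The ratios were then 0.0719, 0.0823, 0.174 and 0.336, the same order of the 4 groups as with merged exons. These sums describe RNA, not protein.

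The first comparison asked what the loss of the enhancer changed in LSKs. No member was called, that is, none of the 6 passed both thresholds, a fold change above 1.5 and, in the quasi-likelihood test of edgeR, an adjusted p under 0.05 (Benjamini-Hochberg, over all genes tested). Among all 15154 genes tested, 6.14% were called, 2.38% higher and 3.76% lower. None of the 6 had an unadjusted p under 0.05, and DESeq2 called none of them either. The log2 fold changes of UREΔ against WT were -0.53 for Id1 (SE 0.48, adjusted p = 0.765, edgeR), 0.21 for Id2, 0.01 for Id3, -0.09 for Tcf3, -0.10 for Tcf4 and 0.18 for Tcf12, and the genotypes overlapped in CPM for all 6, where 12.6% of all genes tested did not overlap. The 95% intervals show how much remains possible, since they run from -1.60 to 0.54 for Id1, from -0.86 to 1.27 for Id2 and from -1.65 to 1.67 for Id3, but only from -0.53 to 0.32 for Tcf4 and from -0.34 to 0.69 for Tcf12. Here and in all comparisons of bulk samples, fewer cells of a type and less RNA per cell cannot be told apart.

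The same question in GMPs gave a borderline value for Id1 and no call for the other members. Of the 5 members tested, none was called, against 8.30% of all 13829 genes tested, 4.67% higher and 3.63% lower. The genotypes overlapped for all of them, where 14.8% of all genes tested did not. Id3 had too few counts to be tested. Id1 was higher in the UREΔ mouse in all 4 pairs of the same replicate number, with a log2 fold change of 1.33 (SE 0.46, 95% interval 0.29 to 2.37), which is 2.52-fold. Its adjusted p was 0.127 in edgeR's test (unadjusted p = 0.0175), and the exact two-sided permutation p over the 8 libraries was 0.0857, where 0.0286 is the smallest that 4 against 4 can give. With the replicate number as a block, the change was 1.43 (SE 0.35) and Id1 was called by edgeR with an adjusted p = 0.0276. DESeq2 also called it, at 1.33 with an adjusted p = 0.0449.

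The Id1 difference was also fitted within each set of mice. In replicates 1 and 4 alone, the log2 fold change was 2.28 (SE 0.48, adjusted p = 0.0281, edgeR). There the sexes, as read from Y-linked RNA, were alike between the genotypes. In replicates 2 and 3 alone it was 0.76 (SE 0.37, adjusted p = 0.482, edgeR). Each of these fits holds 2 mice per genotype, and the sets were formed after a split seen in these data. The difference between both sets was not tested. With Y-linked expression added to the model, the value was 1.37 but the adjusted p was 0.409 in edgeR. Leaving out any one library kept the change between 1.09 and 1.58, with an adjusted p of 0.109 to 0.317 in edgeR's test and no call.

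No E protein gene was called between the genotypes in GMPs, although each had a fitted value below 0. Tcf4 was lower in the UREΔ mouse in all 4 pairs, by a log2 fold change of -0.21 (SE 0.14, 95% interval -0.52 to 0.11, adjusted p = 0.490 in edgeR, exact permutation p = 0.0571). Tcf12 was also lower in all 4 pairs, with -0.43 (SE 0.25, 95% interval -0.99 to 0.13, adjusted p = 0.396 in edgeR, exact permutation p = 0.114). Tcf3 had -0.16 (SE 0.21) and Id2 -0.01 (SE 0.46), each higher in the UREΔ mouse in 2 of 4 pairs. A change of Tcf4 by more than 1.5-fold lies outside its interval in GMPs, whereas one of Tcf12 or Id2 does not.

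**Figure D2:**
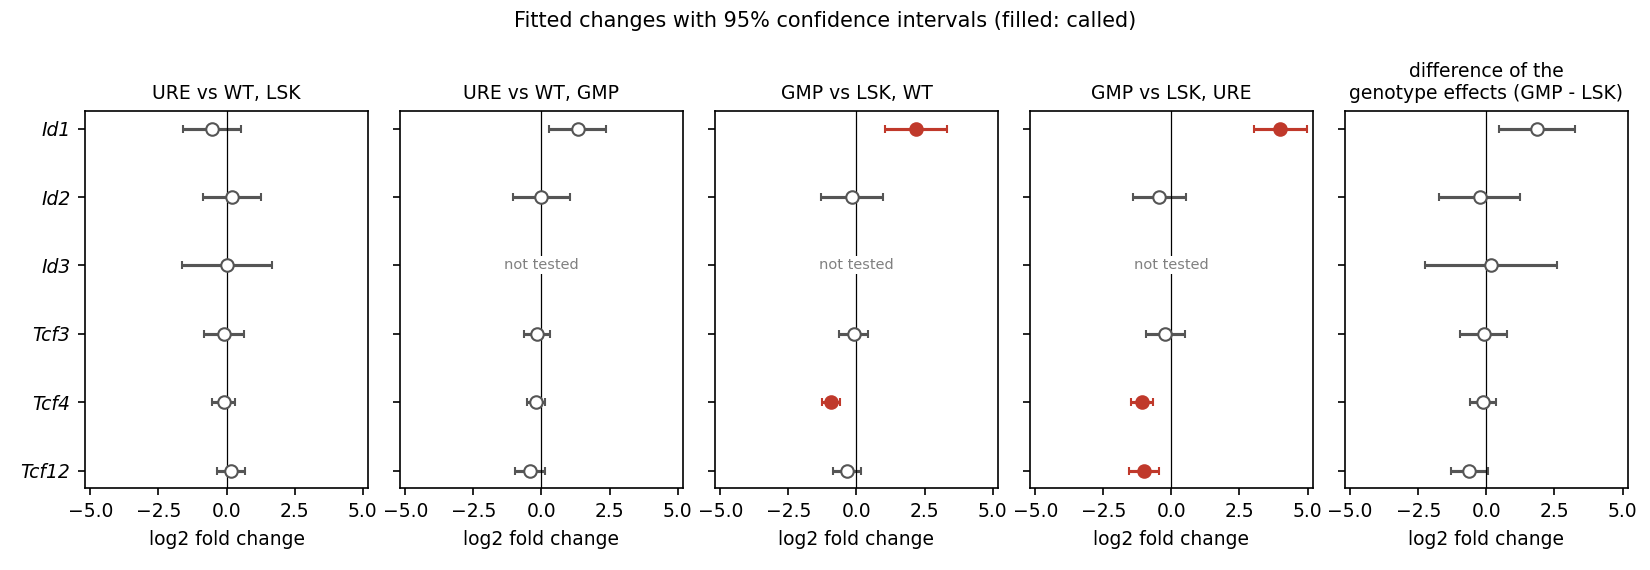
Log2 fold changes of the 6 members (points) with 95% confidence intervals (bars) from edgeR in the 4 comparisons of groups and, at the right, the difference of the genotype effects, GMP minus LSK, with filled red points for members called. Id1 (2.18 in WT and 4.01 in UREΔ) and Tcf4 (-0.92 and -1.07) are called between GMPs and LSKs in both genotypes, Tcf12 (-0.99) in UREΔ mice, and no member between the genotypes.

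The step from LSK to GMP was compared next in WT mice. Of the 5 members tested, 1 rose (Id1) and 1 fell (Tcf4), against 27.3% of all 14767 genes tested, 11.5% higher and 15.8% lower, and both had groups that did not overlap, as did 31.4% of all genes tested. Id1 was 4.54-fold higher in GMPs, a log2 fold change of 2.18 (SE 0.51, adjusted p = 0.0116, edgeR), with the groups apart and the pairs higher in 4 of 4. This held in each fit without 1 library, with an adjusted p of 0.00668 to 0.0330 in edgeR. Within replicates 1 and 4 alone it was 1.16 (SE 0.59, adjusted p = 0.206, edgeR) and not called, and within replicates 2 and 3 alone 2.93 (SE 0.42, adjusted p = 0.0144, edgeR). In WT mice the LSK to GMP step of Id1 was therefore the larger one in the replicates in which the genotype difference in GMPs was the smaller one, and both rest on the same 4 WT GMP libraries.

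Tcf4 fell in WT GMPs by 0.92 on the log2 scale (SE 0.15, adjusted p = 0.00197, edgeR), lower in 4 of 4 pairs and with no overlap between the groups. The call held under all 11 alternative settings, in which the log2 fold change ran from -1.02 to -0.72. Tcf12 had -0.34 (SE 0.23, adjusted p = 0.313, edgeR) and was lower in 4 of 4 pairs, Id2 had -0.16 (SE 0.50) and Tcf3 -0.10 (SE 0.24). Id3 had too few counts in this fit, and in the joint fit of all 16 libraries it was lower in GMPs (log2 fold change -2.33, SE 0.82, adjusted p = 0.0433, edgeR), whereas it was not called with DESeq2 (adjusted p = 0.0665) or with no low-count filter (adjusted p = 0.102, edgeR). The UREΔ value in the same joint fit was -2.16 (SE 0.82, adjusted p = 0.0642, edgeR) and not called. With the replicate block the adjusted p of Tcf12 was 0.0269 in edgeR, but its fold change stayed under 1.5. Over all genes tested, the median log2 fold change was -0.09.

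In UREΔ mice 1 of the 5 members tested rose and 2 fell between LSKs and GMPs, against 21.8% of all 14395 genes tested, 9.20% higher and 12.6% lower, and these 3 had groups that did not overlap, as did 26.6% of all genes tested. Id1 was 16.1-fold higher in GMPs, with a log2 fold change of 4.01 (SE 0.43, 95% interval 3.05 to 4.96, adjusted p = 0.000351, edgeR). Tcf4 fell by 1.07 (SE 0.18, adjusted p = 0.00285, edgeR). Both were called under all 11 alternative settings. Tcf12 fell by 0.99 (SE 0.24, adjusted p = 0.0171, edgeR), lower in 4 of 4 pairs. This call of Tcf12 was lost, in edgeR, without UREΔ GMP replicate 2 (-0.95, adjusted p = 0.0521), without UREΔ GMP replicate 4 (-0.86, adjusted p = 0.0538) and in replicates 2 and 3 alone (-0.87, adjusted p = 0.222). Id2 had -0.44 (SE 0.44) and Tcf3 -0.23 (SE 0.32), neither called.

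**Figure D3:**
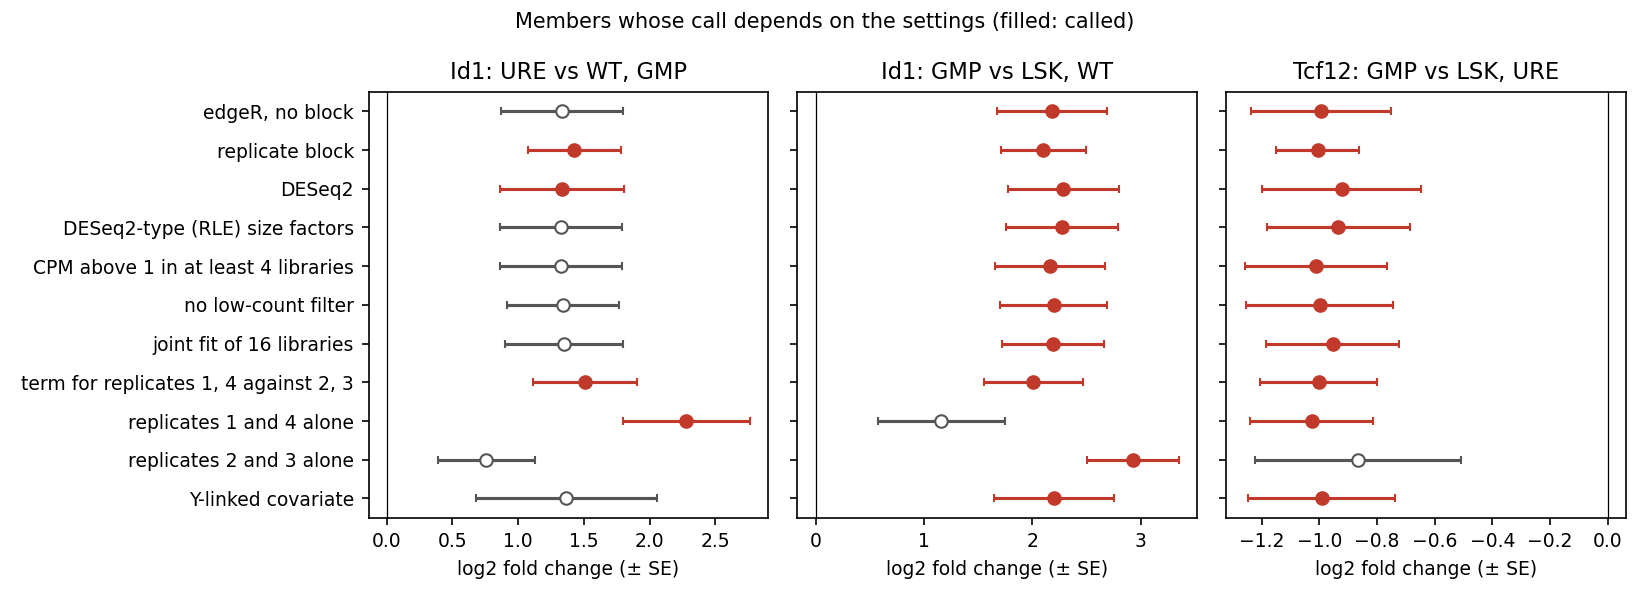
Log2 fold change with its SE (horizontal axis, a separate scale in each panel) of 3 member results whose call depends on the setting (the interaction of Id1 and the WT step of Id3 are not drawn), in the fit without a block and under 10 other settings listed on the vertical axis, with filled red points where the gene was called. The Id1 genotype difference in GMPs runs from 0.76 to 2.28 and is called in 4 of the settings, the WT step of Id1 in all but replicates 1 and 4 alone, and the UREΔ step of Tcf12 in all but replicates 2 and 3 alone.

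Whether the genotype effect differed between the cell types was tested as the interaction over the 16 libraries. No member passed an adjusted p of 0.05, against 1.22% of all 15935 genes tested. Id1 had the largest value of the members, with a genotype effect 1.86 higher in GMPs than in LSKs on the log2 scale (SE 0.65, unadjusted p = 0.0116, adjusted p = 0.217, edgeR). With the replicate block it was 1.90 (SE 0.50) with an adjusted p = 0.0386 in edgeR and passed, while DESeq2 gave 1.81 with an adjusted p = 0.119. It was 3.31 in replicates 1 and 4 alone and 0.89 in replicates 2 and 3 alone. Tcf12 had -0.63 (SE 0.32, adjusted p = 0.497 in edgeR, and 0.0704 under the replicate block), and the values of the other members lay between -0.25 and 0.17.

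Markers of other lineages were read beside these values, since the sorted populations can hold such cells. The 4 basophil and mast cell markers summed to 23.2 to 44.0 CPM in WT LSKs, 85.0 to 155 CPM in UREΔ LSKs, 626 to 1231 CPM in WT GMPs and 848 to 2333 CPM in UREΔ GMPs. All 4 were higher in GMPs in WT and 3 of 4 in UREΔ mice, beside 11.5% and 9.20% of all genes tested. The 6 erythroid markers, of which 3 were higher in GMPs in each genotype and 1, Hbb-bt, was lower in WT GMPs (-4.03), summed to 41.6 to 118 CPM in WT LSKs, 16.9 to 67.7 CPM in UREΔ LSKs, 140 to 425 CPM in WT GMPs and 52.4 to 463 CPM in UREΔ GMPs. The 4 megakaryocyte markers summed to 49.3 to 73.9 CPM in WT LSKs and 90.7 to 205 CPM in WT GMPs, where Pf4 (2.62) and Itga2b (1.04) were higher and Gp9 (-1.18) was lower, and to 54.6 to 329 CPM in UREΔ LSKs and 73.8 to 235 CPM in UREΔ GMPs, where none was called. In WT mice all 3 sums thus moved with Id1 between the cell types. In UREΔ mice the basophil and mast cell sum rose with Id1 without overlap, as did the T, NK and innate lymphoid sum given below. The UREΔ erythroid and megakaryocyte sums overlapped between the cell types. The part of these markers in the Id1 result was not tested. Between the genotypes in GMPs, where 4.67% of all genes were higher and 3.63% lower, none of the 6 erythroid markers was called, and of the basophil and mast cell markers Mcpt8 was higher (log2 fold change 1.48) and Prss34 (-2.42) and Ms4a2 (-2.92) were lower. The 6 GMP gate genes summed to 55212 to 70915 CPM in WT GMPs and to 74274 to 160756 CPM in UREΔ GMPs, without overlap. Of these, 1 was called higher in UREΔ GMPs and none lower, and 1 passed the interaction, beside 1.22% of all genes. Their part in the Id1 difference was not tested.

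Beside Tcf4 the plasmacytoid dendritic list is of interest. Its 6 markers summed to 3.63 to 28.7 CPM in WT LSKs, 11.5 to 62.9 CPM in UREΔ LSKs, 2.75 to 12.2 CPM in WT GMPs and 1.57 to 5.50 CPM in UREΔ GMPs, with Ccr9 at 11.2 to 61.7 CPM in UREΔ LSKs. Siglech, a defining marker, was at 0 in all UREΔ LSK libraries and at no more than 1.28 CPM elsewhere, and Klk1 was at 0 in all 16 libraries. From LSK to GMP, Ccr9 (-5.91) and Pacsin1 (-4.19) fell among the 4 tested in WT mice, and in UREΔ mice, of the 2 tested, Ccr9 fell (-3.62) and Cox6a2 rose (2.95). Over all genes tested 15.8% were lower in WT GMPs, and 12.6% were lower and 9.20% higher in UREΔ GMPs. Between the genotypes in LSKs 3 were tested, with a median of -2.48, and Cox6a2 was lower in UREΔ mice, beside 3.76% of all genes (-5.70, adjusted p = 0.00802, edgeR), with 1.01 to 10.3 CPM in WT and at most 0.265 CPM in UREΔ LSKs, while Ccr9 had 2.05 (adjusted p = 0.218, edgeR) and Pacsin1 -2.48 (adjusted p = 0.205, edgeR). In UREΔ LSKs nearly all of the summed level was that of Ccr9, which was not called between the genotypes. The 8 B lineage markers summed to 58.6 to 85.1 CPM in WT LSKs and 25.2 to 37.0 CPM in UREΔ LSKs. In GMPs they summed to 63.3 to 91.1 CPM in WT and 11.9 to 27.3 CPM in UREΔ mice. Cd79b was at 57.3 to 81.2 CPM in WT LSKs and 23.6 to 34.8 CPM in UREΔ LSKs. Pax5 was at 0 in all libraries but those of WT LSKs. The 6 T, NK and innate lymphoid markers summed to 3.24 to 7.40 CPM in WT LSKs and 1.29 to 10.8 CPM in UREΔ LSKs. They summed to 4.55 to 40.7 CPM in WT GMPs and 18.0 to 103 CPM in UREΔ GMPs, where Tcf7 was higher than in WT (log2 fold change 2.55, adjusted p = 0.0156, edgeR) and Cd3e was at 0. From LSK to GMP in UREΔ mice, 2 of 2 tested were higher, beside 9.20% of all genes. In WT mice none of 3 was called, and 1 of 3 passed the interaction, beside 1.22% of all genes. The 6 conventional dendritic markers summed to at most 11.1 CPM in any library, with Clec9a lower in UREΔ GMPs (-3.81, adjusted p = 0.0132, edgeR). Of the megakaryocyte markers Itga2b was higher in UREΔ than in WT LSKs (1.88, adjusted p = 0.0260, edgeR). In the same comparison 2 of the 4 basophil and mast cell markers were higher and 1 of the 6 erythroid markers was lower. Over all genes tested 2.38% were higher and 3.76% lower there. What these lists contribute to the members' levels was not tested.

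The helix-loop-helix factors listed as tissue-specific partners of the E proteins were mostly silent. The list holds class II factors and also Bhlhe40 and Bhlhe41, which belong to another class. Of 15 listed, 4 or 5 passed the filter on low counts in each comparison of groups. Of these, 1 of 4 was called between genotypes in LSKs and none of 5 in GMPs, and 2 of 4 between cell types in WT and 4 of 5 in UREΔ mice, beside 6.14%, 8.30%, 27.3% and 21.8% of all genes tested. Lyl1, a partner in stem and progenitor cells, had 192 ± 45.2 CPM in WT LSKs and 175 ± 47.3 CPM in UREΔ GMPs (SD, n = 4) and was not called in any comparison. Ascl2 rose in GMPs in both genotypes, from 0.346 ± 0.0854 to 2.48 ± 0.422 CPM in WT (log2 fold change 2.82, adjusted p = 0.000433, edgeR) and from 0.200 ± 0.185 to 4.22 ± 0.796 CPM in UREΔ mice (4.30, adjusted p = 0.00335, edgeR). Tal1 (SCL), which builds complexes with E proteins, Ldb1 and Lmo2, fell in UREΔ GMPs against UREΔ LSKs (-1.18, adjusted p = 0.0103, edgeR), and Bhlhe40 fell in GMPs in both genotypes (-1.49 in WT and -1.44 in UREΔ mice). The UREΔ call of Bhlhe40 was lost, in edgeR, without UREΔ GMP replicate 4 (adjusted p = 0.0550) or UREΔ LSK replicate 1 (adjusted p = 0.0587). Bhlhe41 also fell in UREΔ GMPs against UREΔ LSKs (-2.46). Its fall was called in 2 of the 8 fits without 1 library (adjusted p up to 0.118, edgeR), and not in that without UREΔ GMP replicate 4. In LSKs, Bhlhe41 had 0.0806 to 0.234 CPM in WT and 0.895 to 7.71 CPM in UREΔ mice. It was the 1 gene of this list called between the genotypes (4.09, adjusted p = 0.0160, edgeR). That call was lost without WT LSK replicate 2 (adjusted p = 0.0599) or replicate 4 (adjusted p = 0.0551).

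Among 14 cofactors of E proteins, Runx1t1 (ETO), a corepressor, was higher in UREΔ LSKs, with 7.04 ± 0.789 against 2.89 ± 0.733 CPM (log2 fold change 1.25, adjusted p = 0.0310, edgeR). That call was lost without UREΔ LSK replicate 1 or 4 or without any one of the WT LSK libraries, with adjusted p of 0.0621 to 0.103 in edgeR. Runx1t1 was at 0 to 0.217 CPM in GMPs of both genotypes. Lmo2 fell in GMPs (-1.87 in WT and -1.57 in UREΔ mice) and Lmo4 rose (1.31 and 1.58). In WT mice the call of Lmo2 was lost without WT GMP replicate 1 or 2 or WT LSK replicate 4 (adjusted p of 0.0535, 0.0707 and 0.0665, edgeR). Lmo1 had 0.748 to 2.59 CPM in WT GMPs and 0 or 1 count in each UREΔ GMP library, the 1 cofactor called between the genotypes in GMPs. Ldb1, the scaffold of these complexes, was called in none of the comparisons. In all, 1 of 14 was called between genotypes in LSKs, 1 of 13 in GMPs, 6 of 14 between cell types in WT and 4 of 13 in UREΔ mice. Over all genes tested the shares called were 6.14%, 8.30%, 27.3% and 21.8% in the same order, so that the single calls between genotypes are about the background.

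The genes of BMP and TGF-beta signalling, the pathway that induces Id genes, were lower wherever they were called, and those called include inhibitors as well as receptors. Of 28 listed receptors, SMADs, inhibitors and ligands, 23 were tested in UREΔ against WT LSKs and 1 was lower, beside 3.76% of all genes tested, namely the inhibitory SMAD Smad6 (log2 fold change -1.77, adjusted p = 0.0398, edgeR), a call that held in 1 of the 8 fits without 1 library, the one without WT LSK replicate 1, and was lost in the other 7 (adjusted p of 0.0673 to 0.118, edgeR). In GMPs 4 of 23 were lower in UREΔ mice and none was higher, where 3.63% of all genes tested were lower and 4.67% higher. Bmpr2, a type II BMP receptor, fell from 16.5 ± 0.843 to 5.08 ± 0.298 CPM (log2 fold change -1.71, adjusted p = 0.000968, edgeR), with WT GMPs at 15.4 to 17.2 CPM and UREΔ GMPs at 4.79 to 5.35 CPM. Smad6 (-2.31), the type I receptor Acvr1 (-3.17, with 1 to 5 counts per UREΔ GMP library) and the SMAD repressor Skil (-1.15) were the others. The median of the tested genes was -0.16, beside 0.01 over all genes.

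Between cell types, 6 of 23 genes of this pathway were lower in WT GMPs and 7 of 21 in UREΔ GMPs, and none was higher. Over all genes tested, 15.8% were lower and 11.5% higher in WT, and 12.6% and 9.20% in UREΔ mice. In WT mice Acvr2a (-1.85), Smad3 (-1.09), Smad7 (-1.37) and Smurf1 (-1.22) were the 4 with the smallest adjusted p, which ran from 0.000878 to 0.00715 in edgeR. In UREΔ mice these were Bmpr2 (-1.96), Skil (-1.51), Eng (-1.47) and Smurf1 (-1.49), with adjusted p from 0.00105 to 0.0121 in edgeR. The median of the genes tested was -0.66 in WT and -1.07 in UREΔ mice, beside -0.09 over all genes in either. Id1, a target of the pathway, rose in the same comparisons, which share their libraries. The receptor Bmpr1b was at 0 in all 16 libraries, as was the ligand Bmp6.

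Known target genes of E proteins were lower in UREΔ LSKs in 5 cases and higher in 1 of the 19 tested of 28 listed, where 3.76% of all genes tested were lower and 2.38% higher. Rag2, a subunit of the recombinase, had 9.91 to 26.8 CPM in WT and 0.544 to 1.46 CPM in UREΔ LSKs (log2 fold change -3.97, adjusted p = 0.000925, edgeR). The B cell adaptor Blnk (-2.51, adjusted p = 0.00708) and the receptor chain Cd79b (-1.19, adjusted p = 0.00850) were lower too in edgeR, and the T cell factor Gata3 was higher (1.15, adjusted p = 0.00225). The median of these 19 genes was -1.02, beside 0.00 over all genes. None of the E or ID genes was called in the same comparison, and their part in these values was not tested. The list holds B and T lineage genes that the marker lists also hold, such as Cd79b and Pax5.

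In GMPs 4 of the 14 targets tested were lower and 1 was higher in UREΔ mice, beside 3.63% and 4.67% of all genes tested. Their median was -0.01, as against 0.01 over all genes. Gata3 had 2.93 to 10.2 CPM in WT and 19.4 to 46.1 CPM in UREΔ GMPs (log2 fold change 2.65, adjusted p = 0.00547, edgeR), and Cd79b had 61.2 to 88.7 and 8.15 to 23.4 CPM (-2.31, adjusted p = 0.00349, edgeR). Dntt, the terminal transferase of lymphoid progenitors, was also lower (-1.57, adjusted p = 0.0230, edgeR), but not called without replicate 4 of UREΔ (adjusted p = 0.0797) or of WT GMPs (adjusted p = 0.0597). Il7r, the receptor chain of lymphoid progenitors, had 0.540 to 1.81 CPM in WT GMPs and 3 counts in all over the 4 UREΔ GMP libraries, and was called lower.

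From LSK to GMP, 10 of 18 tested targets fell and 1 rose in WT mice, and 2 of 15 fell and 5 rose in UREΔ mice. Low counts were filtered within each comparison, so the genes tested were not the same and these counts cannot be set against each other. Igll1, at 0 in all UREΔ LSK libraries, passed the filter through UREΔ GMPs alone. The shares over all genes tested were 15.8% lower and 11.5% higher in WT and 12.6% lower and 9.20% higher in UREΔ mice, so the falls in UREΔ mice were near the background and the rise in WT mice was below it. Dntt fell in both, from 443 ± 134 to 31.1 ± 10.8 CPM in WT and from 115 ± 68.2 to 10.5 ± 3.38 CPM in UREΔ mice, as did Gata3 (-3.11 and -1.67). Cdk6, a cell cycle kinase that E proteins repress in T cell lines, rose in both (1.51 and 1.11). In UREΔ mice Vpreb1, a chain of the surrogate light chain, rose from 0.451 ± 0.248 to 2.73 ± 0.177 CPM, and Igll1, its partner chain, was at 0 in all UREΔ LSK libraries and at 0.916 to 2.40 CPM in UREΔ GMPs. The counts in both directions were not compared by a test, except that 1 of 21 targets, Rag2, passed the interaction test (2.83, adjusted p = 0.0218, edgeR). Of 14 immediate early genes, read because Id1 responds quickly to serum and stress, 1 of 10 tested was lower between genotypes in LSKs (3.76% of all genes) and none of 8 was called in GMPs (8.30% of all genes). Of 10, 2 passed the interaction, Ier3 (1.89, adjusted p = 0.0407, edgeR) and Btg2 (1.41, adjusted p = 0.0140, edgeR), against 1.22% of all genes. The Ier3 result passed in 4 of the 16 fits without 1 library (adjusted p up to 0.0982 in edgeR), and that of Btg2 in all 16. Between the cell types, 6 of 10 were lower and 1 was higher in GMPs in WT mice, and 3 of 10 and 1 of 10 in UREΔ mice. Without UREΔ LSK replicate 1 the UREΔ calls of Zfp36, Jun (both lower) and Fos (higher) were lost (adjusted p of 0.0544, 0.0785 and 0.102, edgeR), that of Jun also without UREΔ GMP replicate 2 (adjusted p = 0.0745, edgeR), and that of Fos held in 2 of the 8 fits without 1 library.

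**Figure D4:**
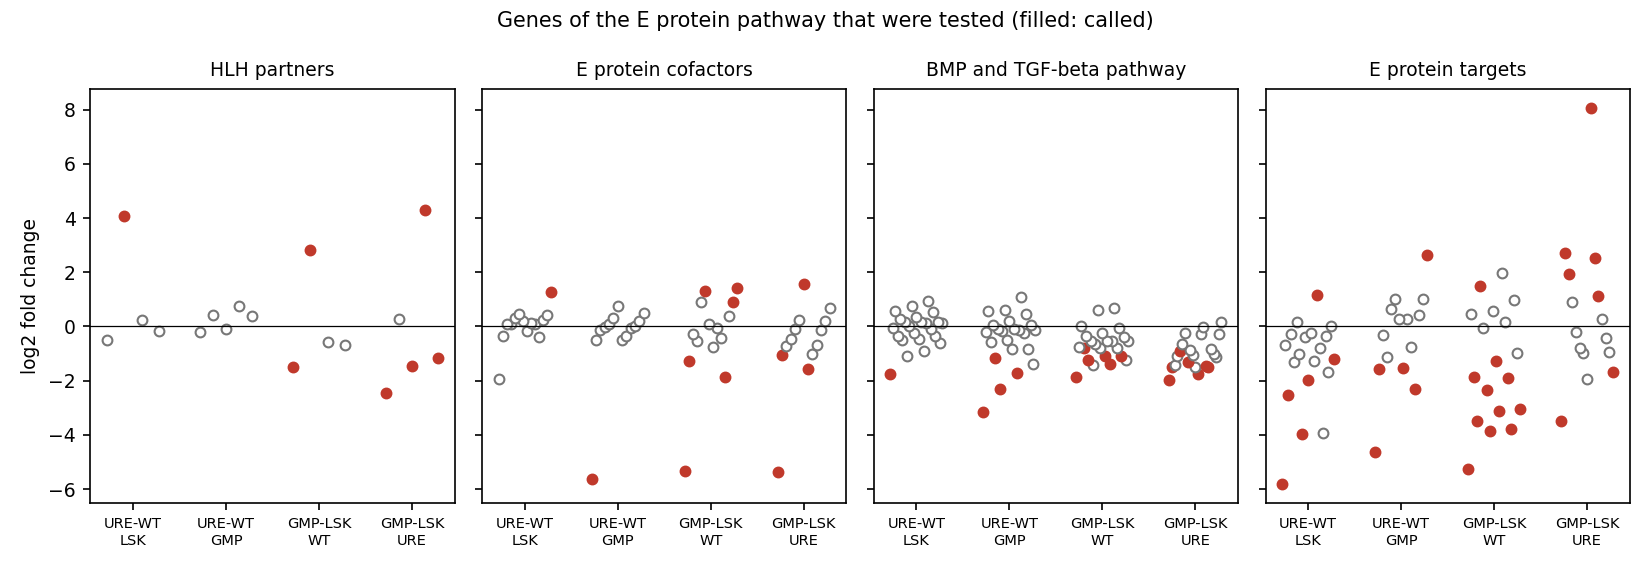
Log2 fold changes (vertical axis) of the tested genes of 4 lists, HLH partners, cofactors, BMP and TGF-beta pathway and E protein targets, in the 4 comparisons of groups (horizontal axis), with 1 point per gene and filled red points for genes called. All called genes of the BMP and TGF-beta list lie below 0, and folds beyond 4 on the log2 scale in either direction belong to genes with few or no counts in 1 of the groups compared, where the fitted size depends on the prior count.

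The genes whose pattern over the 16 libraries was most like each member's are given as a description. They were chosen by Pearson's r of log2 CPM among about 9075 genes with a mean of at least 3 on the log2 CPM scale, and libraries of one group or replicate number share what sets them apart. Id1 was closest to Atp6ap2 (r = 0.963), Rnaseh2c (0.958) and Ppib (0.958). Tcf4 was closest to Atp10d (0.958), Gm4759 (0.948) and Mctp2 (0.947), and Tcf12 was close to Ociad2 (0.912) and Vps54 (0.908). These 8 patterns follow the step between LSK and GMP. For Atp6ap2, a subunit of the proton pump, the group means were 125 CPM in WT LSKs, 104 in UREΔ LSKs, 324 in WT GMPs and 420 in UREΔ GMPs, and for Atp10d they were 56.2, 66.2, 20.8 and 15.6 CPM.

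The other members had less close neighbours. Id2 was closest to Rbm5 (0.805), Psip1 (0.803) and Akr1b10 (0.794), Tcf3 to Rap2b (0.871), Cenpb (0.837) and Zbtb44 (0.836), and Id3 to Arl5b (0.872), Prmt2 (0.854) and Elf1 (0.848). The group means of Rbm5 lay between 172 and 210 CPM and those of Cenpb between 9.81 and 12.9 CPM, beside 7.90 to 10.4 CPM for Id2 and 25.0 to 29.6 CPM for Tcf3. The likeness of Id3 was computed from low counts.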

How the data were processed

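Total RNA of sorted bone marrow cells was made into unstranded, paired-end low-input libraries without molecular identifiers. The authors quantified reads with Salmon against GRCm38 (the version and the annotation release are not given in the sources used here) and deposited estimated counts per gene, already rounded to whole numbers. Reads that match several genes or transcripts are shared by estimate, which can move low values. Depth was 20028302 to 29128858 counts per library. Intervals and limits of detection cover counting error and the spread between mice only as far as 4 mice show it.

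Groups and replicate numbers came from the labels. Genes were filtered with filterByExpr, scaled by TMM and tested with edgeR 4.0.16 (R 4.3.3, limma 3.58.1) by the quasi-likelihood test with Benjamini-Hochberg adjustment over all genes tested. A call needed a fold change above 1.5 with an adjusted p under 0.05, and for the interaction the adjusted p alone. Single members were also tested by an exact two-sided permutation of log2 CPM (prior count 2). The tests were tried on simulated data. DESeq2 1.42.0, RLE size factors, other filters, a joint fit, a replicate block, a batch term for replicates 1 and 4 against 2 and 3, each of these sets alone, a Y-linked covariate, no fold threshold and leaving out each library were used as alternatives. The split behind the batch term and both sets was taken from these data. Figures were drawn with matplotlib 3.10.9.

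Deviations from the group means correlated between same-numbered libraries (r from 0.28 to 0.77 over the 4 comparisons), so the numbers were taken as pairs, although replicate 4 correlated best with replicate 1 in both genotype comparisons. The labels do not say what a number stands for. Replicates of a group differed by at least 31.3 in chi-square per degree of freedom, so no library was present in duplicate. All 6 members, the genes of fixed lists (at most 4 called per list and comparison, by smallest adjusted p; a few others, such as Lyl1, Ldb1, Igll1 and uncalled markers, were named after their values were seen) and the 3 genes most like each member were named, apart from items that are not reported here. The members and lists were chosen with earlier results of these data known. Gene lengths and positions are from GENCODE M21, which matched 54094 of the 54347 genes.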

Additional observations from a re-analysis of the deposited data

Results flagged for a closer look

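Tcf12 in UREΔ LSK replicate 3, at 63.4 CPM, stood apart from the other 3 UREΔ LSK libraries, at 42.4 to 45.0 CPM (gap over range 0.874, above Dixon's 95% limit for 4 values). It was the 1 value so found for a named gene among the groups checked, 32 in all, where chance gives about 1 in 20. Replicate 3 was also the highest for Tcf12 in the other 3 groups. Without that library the UREΔ against WT change of Tcf12 in LSKs was 0.02 on the log2 scale, beside 0.18 with it, and neither was called.

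The effect of the enhancer deletion on Spi1 itself differed between the cell types by 2.64 on the log2 scale (SE 0.517, adjusted p = 0.0218, edgeR's interaction test with Benjamini-Hochberg adjustment), being -5.39 in LSKs and -2.73 in GMPs. Without WT LSK replicate 4 the difference was 2.47 with an adjusted p = 0.0503 in edgeR. None of the ID or E protein genes passed the same test.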

How the results depend on the processing

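Of 281 alternative values of the members, those that left out 1 library aside, 264 kept their direction and their side of the threshold, 5 passed it where the main value had not, 2 no longer passed it and 10 changed sign, none of these 10 being a called value. Id1 and Tcf4 between cell types in UREΔ mice, and Tcf4 in WT mice, were called under every alternative run. Members called in GMPs rose from 0 to 1 (Id1) with the replicate block, DESeq2, the batch term and replicates 1 and 4 alone, and in the interaction from 0 to 1 (Id1) with the replicate block. In WT mice members called between cell types fell from 2 to 1 in replicates 1 and 4 alone and rose to 3 in the joint fit, where Id3 could be tested and was called. In UREΔ mice they fell from 3 to 2 in replicates 2 and 3 alone. The replicate block changed no other member call. Genes called in LSKs (930) came to 1433 with the replicate block, 1631 with DESeq2, 1425 with the batch term, 386 in replicates 2 and 3 alone, 510 with the Y-linked covariate and 565 to 961 without 1 library. Genes called in GMPs (1148) came to 2260, 1995, 1880, 108, 630 and 715 to 1176 in the same order. For the interaction (194), they came to 1047 with the replicate block, 672 with DESeq2, 572 with the batch term, 2 in replicates 2 and 3 alone and 84 to 283 without 1 library. Between cell types, replicates 2 and 3 alone gave 2507 genes in WT (4037) and 810 in UREΔ mice (3133), with 4 libraries in each fit. Replicates 1 and 4 alone, with as many libraries, gave 988 in LSKs, 1236 in GMPs, 174 for the interaction, 3033 in WT and 4222 in UREΔ mice. The cause of these shifts was not tested.

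Signs changed for uncalled values near 0. In LSKs, Id3 was -0.0089 with no low-count filter and -0.17 with the batch term, Tcf3 0.21 in replicates 1 and 4 alone and Tcf4 0.0086 with the Y-linked covariate. In GMPs, Id2 was 0.041 with the batch term and 0.22 in replicates 1 and 4 alone. In WT mice Id2 was 0.15 and Spi1 -0.0027 in replicates 1 and 4 alone. In replicates 2 and 3 alone, Tcf3 was 0.27 in UREΔ mice, and the interactions were -0.81 for Id3 and 0.40 for Tcf3. Without 1 library, the LSK values ran from -0.14 to 0.67 for Id2, -0.33 to 0.41 for Id3, -0.39 to 0.10 for Tcf3 and -0.22 to 0.026 for Tcf4, and the GMP values of Id2 from -0.31 to 0.42. Between cell types they ran from -0.55 to 0.30 for Id2, -0.22 to 0.10 for Tcf3 and -0.034 to 0.39 for Spi1 in WT mice, and from -0.37 to 0.12 for Tcf3 in UREΔ mice. Interactions ran from -0.71 to 0.19 for Id2, -0.21 to 1.02 for Id3 and -0.29 to 0.20 for Tcf3. Depth limits Id3 and, in LSKs, Id1, which had 13 to 46 counts per library, and at 4 mice per group the 95% intervals of Id1 and Id2 between genotypes span about 2 log2 units.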
